A study of Mus musculus with 3 samples.

Results

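The methyl-CpG readers Mbd1, Mbd2, Mbd3, Mbd4 and Zbtb33 were measured in cultures of mouse neural stem cells, of which 1 set was labelled as a knockout (KO) of Dnmt3a, the gene of a de novo DNA methyltransferase, and the other as wild type (WT). Members were taken by gene name or by the current symbol of the probe's accession, with every probe kept. This gave 9 of the 41174 distinct probes on the array, with 3 for Mbd1, 2 each for Mbd2 and Zbtb33, and 1 each for Mbd3 and Mbd4. All 5 genes and 8 of the 9 probes passed the filter on dim signals. A probe passed if it was well above background on all 3 arrays in at least 1 channel.

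The KO cells carried the genotype Dnmt3a-/- and the WT cells were wildtype, and both were neural stem cells derived from mouse embryonic stem cells that had been taken off feeder cells and then grown as neurospheres and attached cultures with EGF and bFGF. Each of 3 two-colour arrays paired RNA labelled KO (Cy3) with RNA labelled WT (Cy5) of 1 of 3 biological replicates. The dyes were the same way round on all 3 arrays, so a dye bias of a single probe and the genotype cannot be told apart. The labels do not give the part of Dnmt3a that was deleted, or whether the replicates came from separate lines, and the p-values measure only the spread between these arrays.

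Methyl-CpG readers are proteins that recognise methylated cytosine in CpG and recruit other proteins to it. Mbd1 to Mbd4 share the MBD fold, while Zbtb33 encodes Kaiso, which binds DNA through zinc fingers. Mbd2 and Mbd3 are alternative subunits of the chromatin-remodelling and deacetylase complex NuRD, and mammalian Mbd3 binds methylated CpG only weakly. Mbd1 also carries CXXC zinc fingers and recruits histone methylation enzymes, Mbd4 is a DNA glycosylase that removes thymine from mismatches at CpG, and Kaiso represses genes through the co-repressor N-CoR. In mice, Mbd1 is known for its part in adult hippocampal neurogenesis.

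The sequences of a pair of 60-base probes are shown because each is the single probe behind the value of its gene, and each has at least 1 reading frame free of stop codons over its whole length. The Mbd3 probe lies on chromosome 10 from 80183905 to 80183845 and the Mbd4 probe on chromosome 6 from 115868229 to 115868170 (mm7, both listed from the higher coordinate down). Each is printed 5′ to 3′ with no capitals.
Mbd3 A_51_P398004: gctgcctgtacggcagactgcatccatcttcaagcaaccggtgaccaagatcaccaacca
Mbd4 A_51_P203192: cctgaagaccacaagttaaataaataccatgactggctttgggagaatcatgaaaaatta

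The readers' own promoters were read from RefSeq windows of GRCm38.p6, from 250 bases before to 50 bases after the gene start, and 3 of the 5 members matched. The Mbd3, Mbd4 and Zbtb33 windows held 22, 25 and 34 CpG dinucleotides, against a median of 7 over 32851 windows. Of all windows, 76.9%, 81.6% and 92.3% held fewer than these, in that order. The arrays measured no methylation. The 250 bases before the start of Mbd3 (chr10:80399532-80399781, minus strand) and of Zbtb33 (chrX:38189543-38189792, plus strand) are shown for their CpG dinucleotides, the letters that the readers bind when methylated, which are in capitals.
Mbd3: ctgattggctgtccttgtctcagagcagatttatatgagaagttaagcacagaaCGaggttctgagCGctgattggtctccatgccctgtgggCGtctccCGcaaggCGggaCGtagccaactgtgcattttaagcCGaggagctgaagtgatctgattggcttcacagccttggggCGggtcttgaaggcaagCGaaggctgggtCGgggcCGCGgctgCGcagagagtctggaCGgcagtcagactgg
Zbtb33: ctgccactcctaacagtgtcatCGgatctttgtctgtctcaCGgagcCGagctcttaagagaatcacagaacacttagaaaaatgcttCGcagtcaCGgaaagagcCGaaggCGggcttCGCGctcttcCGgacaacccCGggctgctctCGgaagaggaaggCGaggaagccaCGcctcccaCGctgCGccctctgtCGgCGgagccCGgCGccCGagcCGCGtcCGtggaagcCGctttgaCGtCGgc
The Mbd3 stretch holds 14 CpG and the Zbtb33 stretch 27. Kaiso also binds the unmethylated motif TCCTGCNA, which was searched on both strands. The Mbd3 window held TCCTGCGA directly after the stretch shown, beginning at the gene start, and the Mbd4 and Zbtb33 windows held no match. Of all windows, 4.96% held the motif, and a match is a description of letters and not a binding site.

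As a check of the labels, all 3 Dnmt3a probes were higher in the RNA labelled KO, opposite to what the label names. The brightest had log2 ratios of 1.07, 0.97 and 0.92 on arrays 1, 2 and 3, and a mean of 0.99 ± 0.08 (SD, n = 3; limma, adjusted p = 1.2e-06). The other probes had means of 0.61 and 0.76. A probe outside the deleted part would not show the loss, and why all 3 were higher was not tested. Exchanged channel labels, which would reverse every direction below, cannot be told apart from a higher Dnmt3a signal in the KO cells. All directions below go by the labels of the channels. All 12 neural stem cell markers looked up were measured, with 2 called higher and 9 called lower, beside 22.4% and 25.4% of all tested genes. Sox2 had a log2 intensity of 8.54 in the KO channel and 8.89 in the WT channel and Vim 15.04 and 15.25. Fibroblast markers were bright in both, with Col3a1 at 15.56 and 15.54, saturated in the WT channel on all 3 arrays. Of 9 fibroblast markers, 2 were higher and 6 lower, with ratios from -1.48 to 0.95 and a summed level of 17.32 in the KO channel and 17.73 in the WT channel (log2). Col1a1 was saturated in the WT channel on all 3 arrays too, so the WT sum is a lower bound. Of 5 oligodendrocyte lineage markers 4 were lower, of 4 astrocyte markers 3 were tested and 1 was lower, and of 9 embryonic stem cell markers 4 were tested and 1, Dppa5a, was higher at 0.17 (adjusted p = 0.0058), while Pou5f1 and Nanog, which define these cells, did not pass the filter. The part of other cells in the readers' ratios was not tested, and in bulk RNA fewer cells of a type and less RNA per cell cannot be told apart.

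Mbd1 was higher in the RNA labelled KO, Mbd2 and Zbtb33 were slightly lower, and Mbd3 and Mbd4 were not past the threshold. The threshold was an adjusted p under 0.05 (limma, Benjamini-Hochberg over 18068 genes, each by its brightest probe), and ratios are given as log2 of the KO channel over the WT channel. Thus 3 of 5 readers were called, beside 47.8% of all tested genes, so the share is near the background. By direction 1 reader was higher and 2 were lower, beside 22.4% and 25.4% of all genes. The median of the 5 ratios was -0.0019, against -0.011 over all tested genes. The largest of the 5 differences, that of Mbd1, was 1.34-fold.

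**Figure D1:**
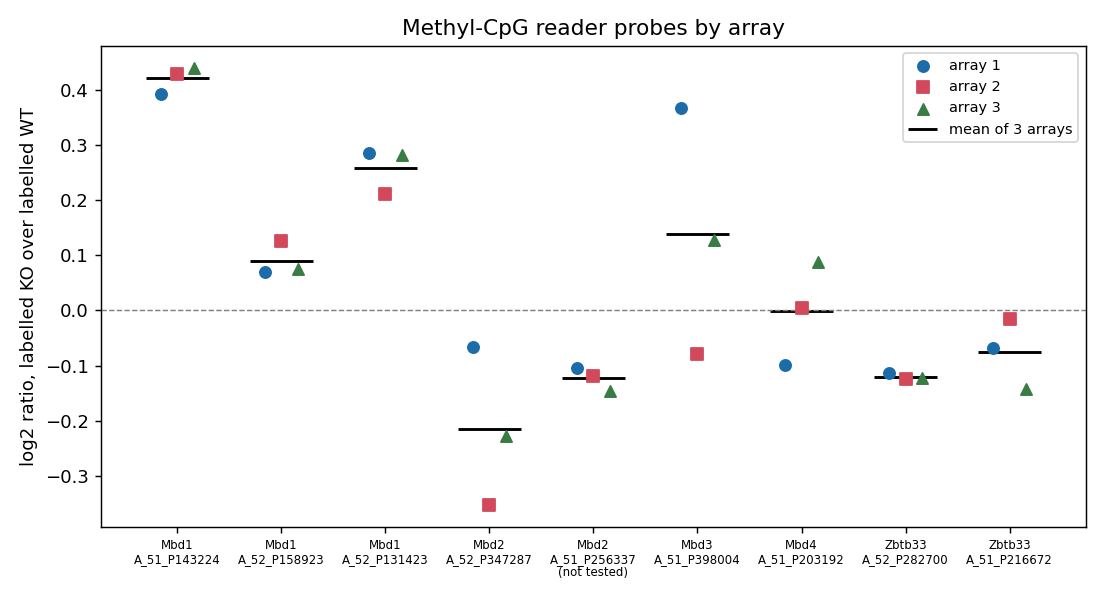
Log2 ratio of the KO over the WT channel (vertical axis) for the 9 reader probes (horizontal axis), with 1 point per array and a bar at the mean of 3 arrays. The 3 Mbd1 probes lie above 0 at 3 different heights, the Mbd2 and Zbtb33 probes lie below 0 and Mbd3 and Mbd4 fall on both sides. Mbd2 probe A_51_P256337 and Zbtb33 probe A_51_P216672 were dim, and no direction is read from them.

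Mbd1 had the ratio farthest from 0 among the readers. Its brightest probe, A_51_P143224, lies on chromosome 18 from 74676874 to 74676933 (mm7). It had normalized log2 intensities of 10.54, 10.63 and 10.61 in the RNA labelled KO on arrays 1, 2 and 3, against 10.15, 10.20 and 10.17 in the RNA labelled WT. The groups did not overlap, but the share of all tested genes for which this holds was not counted. The log2 ratios were 0.39, 0.43 and 0.44, a mean of 0.42 ± 0.02 (SD, n = 3), or 1.34-fold (limma, adjusted p = 3.4e-05).

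The direction of Mbd1 rests on the normalization. Before it, the mean spot signal was 1063, 1447 and 1153 in the channel labelled KO, against 1674, 1447 and 1241 in the channel labelled WT. With each array only centred on its median the ratio was -0.013 (adjusted p = 0.92). Under that centring the median of all genes lay at -0.26 and that of 1948 genes of like intensity at -0.45, so Mbd1 lay 0.44 above genes of its own brightness. Loess takes out the same trend with intensity, so this difference restates the loess ratio and is no separate check.

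The other Mbd1 probes were also higher but by less. A_52_P158923, whose start lies 473 bases from that of the brightest probe on the same RefSeq transcript, had ratios of 0.07, 0.13 and 0.08 (mean 0.09 ± 0.03, adjusted p over 26695 probes 0.061). A_52_P131423, 12946 bases away and designed on a cDNA clone, had ratios of 0.29, 0.21 and 0.28 (mean 0.26 ± 0.04, adjusted p over probes 6.0e-04). The ranges of the 3 probes over the arrays did not overlap, although all 3 were named for 1 gene. Where normexp took in every spot, A_52_P131423 was at 0.07 (adjusted p over probes 0.078). With the mean over the 3 probes in place of the brightest, Mbd1 was at 0.26 (adjusted p = 3.5e-04).

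Mbd2, the reader that brings NuRD to methylated DNA, was lower in the RNA labelled KO. Its brightest probe, A_52_P347287 on chromosome 18 from 70974943 to 70975002 (mm7), had log2 intensities of 8.69, 8.55 and 8.64 in the RNA labelled KO, against 8.76, 8.91 and 8.86 in the RNA labelled WT. All 3 arrays were below 0, but unevenly, at -0.07, -0.35 and -0.23. The mean was -0.22 ± 0.14 (SD, n = 3; limma, adjusted p = 0.012), and 94.7% of tested probes had a smaller SD between arrays.

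The Mbd2 call did not hold with every source of values. It was at -0.17 with the scanner's processed signals (adjusted p = 0.18), at -0.16 with the authors' deposited values (adjusted p = 0.25) and at -0.21 without replicate 3 (adjusted p = 0.053). Where normexp took in every spot, it was past the threshold at -0.12 (adjusted p = 0.035). The second probe, A_51_P256337, was designed on a partial Mbd2 sequence 13562 bases away. In the KO channel it did not stand well above background on any array, and in the WT channel it did on 2 of 3, so it was not tested. Its measured ratios were -0.10, -0.12 and -0.15, which are open to dye bias, and no fold or test is read from it.

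Mbd3, the other NuRD subunit of the pair, was the least even of the readers. Its log2 intensities were 9.53, 9.31 and 9.58 in the RNA labelled KO, against 9.16, 9.39 and 9.45 in the RNA labelled WT. The groups overlapped, and the ratios of 0.37, -0.08 and 0.13 took both signs. The mean was 0.14 ± 0.22 (SD, n = 3; limma, adjusted p = 0.16), with a 95% interval from -0.03 to 0.31. Its SD was larger than that of 99.0% of tested probes. Replicate 2 decided the call, since without it Mbd3 was at 0.25 (adjusted p = 9.0e-04), while without replicate 1 it was at 0.02.

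Mbd4, the thymine glycosylase, had log2 intensities of 7.74, 7.71 and 7.71 in the RNA labelled KO, against 7.84, 7.71 and 7.62 in the RNA labelled WT. Its ratios of -0.10, 0.01 and 0.09 straddled 0. The mean was -0.0019 ± 0.09 (SD, n = 3; limma, adjusted p = 0.98), with a 95% interval from -0.10 to 0.10.

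Zbtb33, which encodes Kaiso, was lower in the RNA labelled KO by a small and even amount. Its brightest probe, A_52_P282700 on chromosome X from 33288949 to 33289008 (mm7), was designed on a cDNA clone. This probe had log2 intensities of 9.19, 9.13 and 9.12 in the RNA labelled KO, against 9.30, 9.25 and 9.24 in the RNA labelled WT. The groups did not overlap, which was not counted over all tested genes, and the ratios were -0.11, -0.12 and -0.12. The mean was -0.12 ± 0.006 (SD, n = 3; limma, adjusted p = 0.015), and only 0.84% of tested probes had a smaller SD.

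The Zbtb33 call depended on the values used. It was at -0.02 with the scanner's processed signals (adjusted p = 0.64) and at -0.02 in the authors' deposited table (adjusted p = 0.76). It also lost the threshold without replicate 2 (adjusted p = 0.064) and without replicate 3 (adjusted p = 0.077), at ratios that stayed at -0.12. The second probe, A_51_P216672, was designed on a RefSeq transcript, and its start lies 2214 bases from that of the brightest probe. It was dim and stood well above background on 1 of 3 arrays in the KO channel and on 3 of 3 in the WT channel. Its ratios were -0.07, -0.01 and -0.14. With the processed signals its mean was -0.47, and in the authors' deposited table it was -0.47 too, unlike the brightest probe. It passed the filter through the WT channel alone, so no fold or test is read from it under any of these values.

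**Figure D2:**
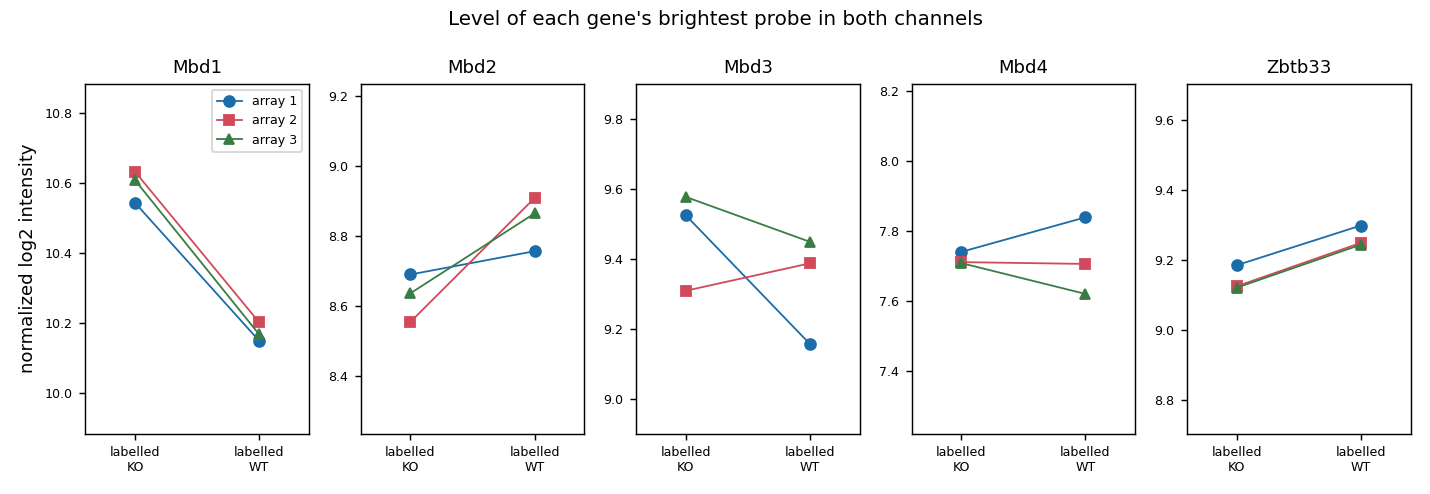
Normalized log2 intensity (vertical axis, 1 unit tall in each panel) of the brightest probe of each reader in the KO channel (left) and the WT channel (right), with a line joining the channels of each array. The lines of Mbd1 all fall toward labelled WT, those of Mbd2 and Zbtb33 all rise, and those of Mbd3 and Mbd4 take both directions.

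In order of their ratios the readers ran Mbd1, Mbd3, Mbd4, Zbtb33 and Mbd2. Mbd1 lay above every other reader on each array, although on array 1 Mbd1 at 0.39 and Mbd3 at 0.37 were close. Of the other neighbours in this order, Mbd3 and Mbd4 overlapped over the arrays, as did Zbtb33 and Mbd2, whereas every Mbd4 value lay above every Zbtb33 value. Over probes, 4 of the 8 tested were called, beside 44.2% of all tested probes. Of these, 2 were higher and 2 lower, beside 20.7% and 23.6% of all tested probes.

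The genes with the most similar ratios over the 3 arrays, among those within 1 log2 unit of intensity, differed from each reader by a root mean square of 0.0077 to 0.052. They were Scamp1 and Dnajb4 for Mbd1, P3h1 and Camk1 for Mbd2, Xpnpep1 and Pygo2 for Mbd3, Pyroxd2 and AB010317 for Mbd4, and Grk5 and Acat2 for Zbtb33. With 3895 to 5506 candidates and 3 arrays, close matches were available for each.

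Protein-coding genes next to the readers in coordinate order were chosen for their position after the readers' values had been seen. Cxxc1, which encodes a CXXC protein that binds unmethylated CpG and is the neighbour before Mbd1 in GRCm38.p6, was at 0.11 ± 0.03 (adjusted p = 0.028), and Cfap53 after Mbd1, above background on 1 of 3 arrays in the KO channel and on 3 of 3 in the WT channel, was at -0.05. Poli, before Mbd2, was at -0.03 (adjusted p = 0.57). Ift122, which overlaps the start of Mbd4 head to head, was at 0.17 ± 0.01 (adjusted p = 0.0033), while Mbd4 was at -0.0019. Rhox13, a germline homeobox gene before Zbtb33, was at -0.94 ± 0.07 (adjusted p = 1.3e-06), against -0.12 for Zbtb33, and Tmem255a on the other side was at -0.05 (adjusted p = 0.23). Uqcr11 after Mbd3 was at 0.29 ± 0.08 (adjusted p = 7.4e-04), and Mex3d before it at 0.06 (adjusted p = 0.16). The remaining neighbours, Dcc and Efcab12, were not tested.

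Partners and relatives of the readers were then read from the gene fit. Of 51 tested genes in all lists, 11 were higher and 18 lower, so 56.9% were called beside 47.8% of all genes. Their median was -0.06, against -0.011 over all genes, and with each array only centred on its median 2 were higher and 38 lower. Without replicate 3 the lower genes numbered 10. Of the list genes named below, Chaf1a, Ung, Fadd, Uhrf1 and Ccnd1 kept their direction and call under all 12 alternatives.

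Of 13 subunits of the NuRD complex, which Mbd2 or Mbd3 joins, 4 were called higher, 3 lower and 6 neither, at a median of 0.04. That is 53.8% called, beside 47.8% of all genes. The deacetylase Hdac1 was at 0.27 ± 0.03 (adjusted p = 4.3e-04), with 0.24, 0.25 and 0.30 on the arrays. Gatad2a at 0.16, the remodeller Chd3 at 0.16 and Chd5 at 0.11 were also higher, and Hdac1, Gatad2a and Chd3 turned to -0.27, -0.30 and -0.38 with median centring. Lower were Gatad2b at -0.16, Cdk2ap1 at -0.13 and the histone chaperone Rbbp7 at -0.12. The paralogs Gatad2a and Gatad2b are alternative subunits that bind Mbd2 and Mbd3, with ratios of 0.17, 0.15 and 0.16 for Gatad2a and of -0.19, -0.14 and -0.15 for Gatad2b. Both lost their call with the processed signals (adjusted p = 0.059 and 0.15) and with the authors' deposited values (0.087 and 0.15), and with median centring Gatad2b was at -0.54, so that both were below 0. Rbbp7 lost its call with both of these sources and without replicate 2 or 3, and Chd3 with the authors' deposited values. Chd5 was at 0.02 where normexp took in every spot (adjusted p = 0.26) and lost its call without replicate 1 or 3. The Chd5 call was also lost with the mean over its probes (adjusted p = 0.056) and with median centring (0.22). Cdk2ap1 lost its call without replicate 2 or 3, where normexp took in every spot (adjusted p = 0.051) and with a normexp offset of 10 (0.056). Without replicate 3 the counts were 3 higher and 1 lower, with the authors' deposited values 2 and 1, and with median centring 0 and 11. Chd4 at 0.09 (adjusted p = 0.053), Hdac2, Mta1, Mta2, Mta3 and Rbbp4 were not past the threshold.

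Of 8 Mbd1 partners, 1 was called higher, 3 lower and 4 neither, at a median of -0.10, which is 50% called beside 47.8% of all genes. Mpg, a DNA glycosylase that binds Mbd1, was at 0.36 ± 0.01 (adjusted p = 6.8e-05), although with median centring it was at -0.12. Chaf1a, a histone chaperone subunit of replicating chromatin, was at -0.19 and the histone methyltransferase Suv39h1 at -0.11, a call lost on leaving out any one replicate. Atf7ip, which links Mbd1 to the methyltransferase Setdb1, was at -0.26 by its brightest probe, while another of its 4 probes was higher at 0.17 (adjusted p over probes 0.0051) and their mean was at -0.05 (adjusted p = 0.17). Setdb1 itself, which also has an MBD fold, was at -0.14 ± 0.17 (adjusted p = 0.094). Of the genes reported as Mbd1 targets in neural stem cells, Numbl was at -0.05 (adjusted p = 0.26) and Fgf2 did not pass the filter.

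Of 9 genes that act with Mbd4 or in base excision repair, 1 was called higher, 4 lower and 4 neither, at a median of -0.08. That is 55.6% called, beside 47.8% of all genes. The uracil glycosylase Ung was at -0.32 ± 0.04 (adjusted p = 1.9e-04). Fadd, a death adaptor that binds Mbd4, was at -0.17, and Tdg, the other thymine glycosylase, at -0.15, a call lost without replicate 1 or 3. The Tdg call was also lost where normexp took in every spot (adjusted p = 0.052). Polb, the repair polymerase, was at 0.20 ± 0.12 and turned to -0.21 with median centring. With the mean over its probes Polb was at 0.05 (adjusted p = 0.26). Its call was also lost with the processed signals (0.083), the authors' deposited values (0.064) and without replicate 3. Where normexp took in every spot it was lost as well (adjusted p = 0.097).

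Of 7 partners of Kaiso, 1 was called higher, 3 lower and 3 neither, at a median of -0.09, which is 57.1% called beside 47.8% of all genes. Ctnnd1, which encodes the p120 catenin that binds Kaiso, was at 0.16 ± 0.03 (adjusted p = 0.0051), at -0.01 with median centring and at 0.04 where normexp took in every spot (adjusted p = 0.11). Of the N-CoR complex, Hdac3 at -0.13, Gps2 at -0.12 and Tbl1xr1 at -0.11 were lower, while Ncor1 was at -0.02 (adjusted p = 0.72) and Tbl1x at 0.02 (adjusted p = 0.72). Hdac3 lost its call with the processed signals (adjusted p = 0.20), with the authors' deposited values (0.35) and without replicate 3. Gps2 lost it with the same sources (0.063 and 0.068) and without replicate 2 or 3, and Tbl1xr1 on leaving out any one replicate. Where normexp took in every spot both were at -0.03 and lost their calls (adjusted p = 0.12 and 0.15). With the mean over its probes Gps2 lost its call too (adjusted p = 0.12). Of 6 reported Kaiso targets 5 were tested, with 2 called higher, 1 lower and 2 neither, which is 60% called beside 47.8% of all genes. The cell cycle gene Ccnd1 was at 1.26 on each of the 3 arrays (mean 1.26 ± 0.004, adjusted p = 1.4e-07), and Fosl1 was at 0.25, with 0.03 where normexp took in every spot (adjusted p = 0.078) and 0.69 with the processed signals. Wnt11, a Kaiso target in Xenopus, was at -0.14, and at -0.02 where normexp took in every spot (adjusted p = 0.17). Without replicate 2 the Wnt11 call was lost too (adjusted p = 0.052).

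Other methyl-CpG readers outside the member list moved in both directions. Zbtb4, a Kaiso relative, was at 0.49 ± 0.06 (adjusted p = 3.1e-05), with 0.42, 0.55 and 0.50 on the arrays, and with median centring at 0.07. Zbtb38 was at 0.13, with 0.02 where normexp took in every spot (adjusted p = 0.26) and 0.39 with the processed signals (adjusted p = 0.077). The Zbtb38 call was also lost with the authors' deposited values, with median centring and without replicate 3. Uhrf1, which reads hemimethylated CpG at replication, was at -0.39 ± 0.05 (adjusted p = 7.6e-05) and Uhrf2 at -0.29 ± 0.05, although with the mean over its probes Uhrf2 was at -0.08 (adjusted p = 0.078). Of the 8 other genes with an MBD fold 6 were tested, with Mbd6 at -0.15 and Baz2b at -0.12 lower and the other 4 not past the threshold. That is 33.3% called, beside 47.8% of all genes. Mbd6 was at -0.04 with the processed signals (adjusted p = 0.43) and with the authors' deposited values (0.43). Baz2b lost its call with both (0.062 and 0.065), without replicate 1 or 3, and where normexp took in every spot (0.090). The 3 zinc-finger readers therefore had ratios of -0.12 for Zbtb33, 0.49 for Zbtb4 and 0.13 for Zbtb38.

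**Figure D3:**
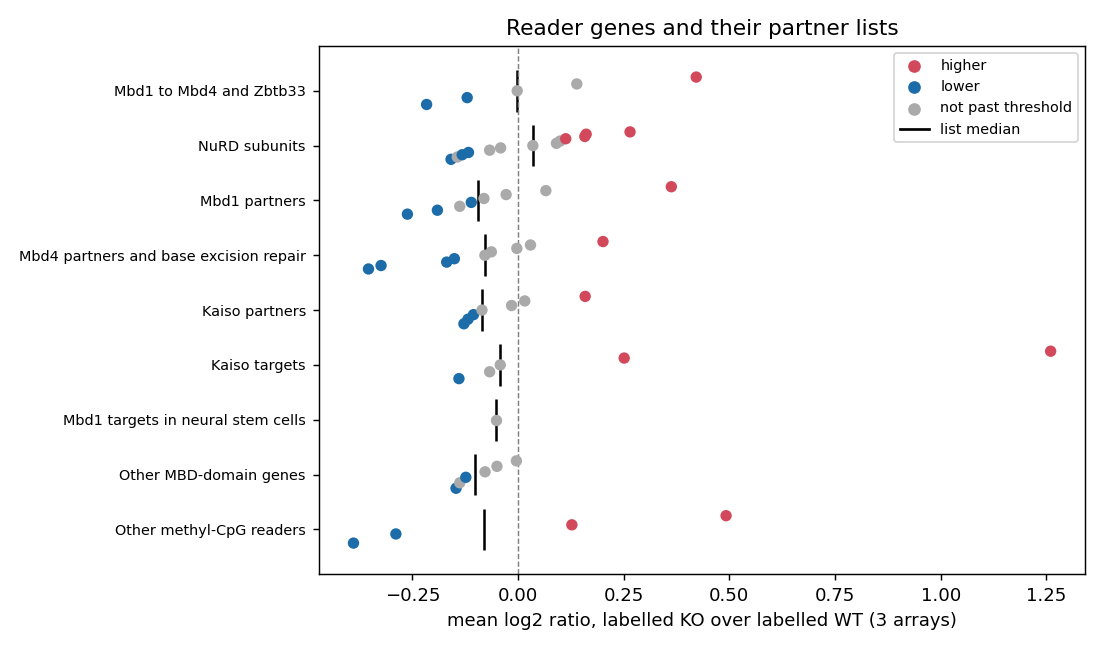
Mean log2 ratio of the KO over the WT channel over 3 arrays (horizontal axis) for the readers and each partner list, with 1 point per tested gene coloured by its call and a bar at the list's median. The medians lie between -0.10 and 0.04, and Ccnd1 at 1.26 lies apart.

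**Figure D4:**
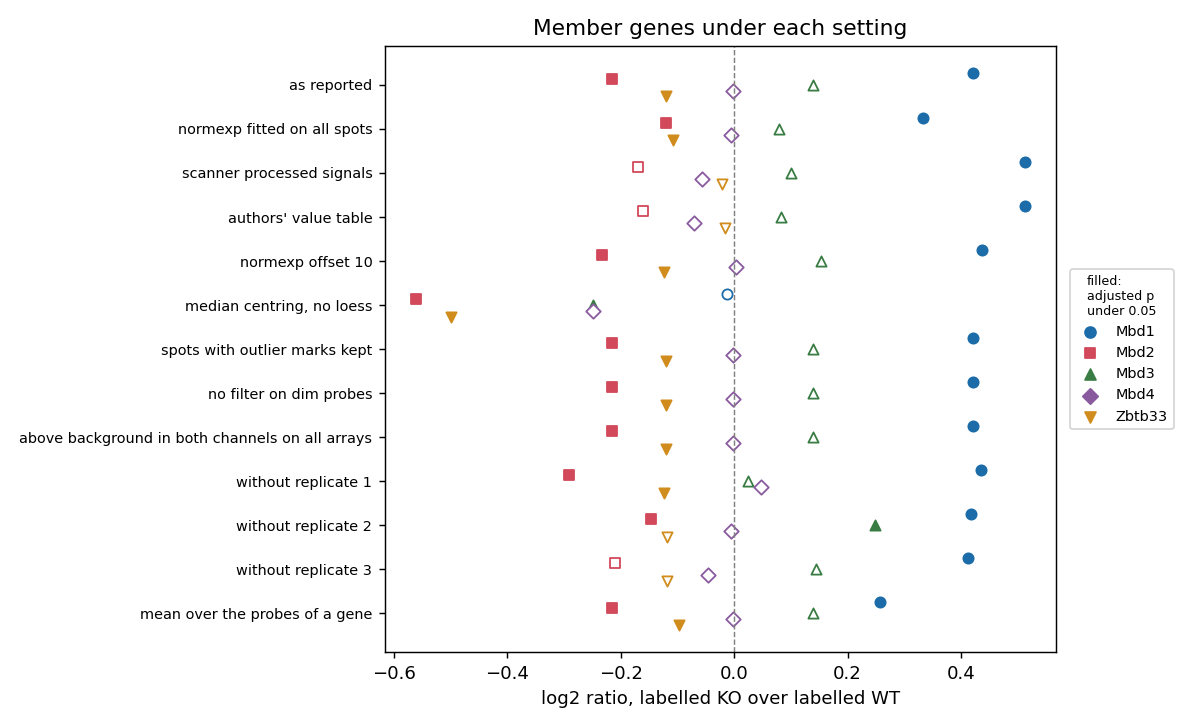
Log2 ratio of the KO over the WT channel for the 5 readers (horizontal axis) under the reported setting and 12 alternatives, with filled symbols for an adjusted p under 0.05. Mbd1 lies between 0.26 and 0.51 in all settings but median centring, where every reader moves to lower values.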

How the data were processed

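Per the file headers, Agilent Feature Extraction 9.5.3.1 wrote the deposited raw spot and background intensity values and the processed intensity values, which it had corrected for background and dye; probe positions are on mm7. Per the file headers it also wrote the deposited log10 ratio of red over green from those processed signals. The authors' deposited value table was taken as log2 values of the KO over the WT channel, since it correlated with the scanner's red over green ratio at r = -0.998, -0.997 and -0.993; how it was centred is unknown (median 0.0276 per column).

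Signals were corrected with normexp (limma 3.58.1, R 4.3.3; offset 50, which draws dim ratios toward 0, fitted on unmarked spots), normalized by loess within arrays, and averaged over a probe's spots. Control spots and outlier spots were left out. Well above background per array and channel were 63.6% to 68.9% of probes. The number of arrays limits the precision. Names came from the accession for 22951 probes and from a symbol or synonym for 9768, while 8455 kept the file's name. Of several probes the brightest stood for the gene. Mean ratios were tested against 0 with limma (two-sided, 2 residual degrees of freedom, Benjamini-Hochberg), after tests on simulated data. Named genes were every reader probe, up to 4 called genes per list and direction with the largest ratios, all genes of lists of 4 or fewer, and the 2 nearest patterns per reader. Members, lists and the normexp fit were chosen with earlier results of these data known. One gene that this rule names is not reported here.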

Additional observations from a re-analysis of the deposited data

How the results depend on the processing

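With each array centred on its median in place of loess, the all-gene median moved to -0.26. Mbd1 then stood at -0.013 and Mbd3 at -0.25, both turned in sign (adjusted p = 0.92 and 0.025), and Mbd1 probes A_51_P143224 and A_52_P158923 at -0.013 and -0.20, Mbd3 probe A_51_P398004 at -0.25 and Zbtb33 probe A_51_P216672 at 0.046. Hdac1 (-0.27), Gatad2a (-0.30), Chd3 (-0.38), Mpg (-0.12), Polb (-0.21) and Ctnnd1 (-0.012) turned too, 761 genes were higher and 9569 lower, and 2 and 38 list genes. By construction, centring leaves in place the part of a ratio that varies with intensity. Over all genes the reported setting called 4049 higher and 4591 lower, and the normexp fit that took in every spot called 2318 higher and 6 list genes higher. In the authors' deposited table, 7 list genes were higher. The same values gave Mbd2 -0.16 and Zbtb33 -0.017, and the processed signals -0.17 and -0.021, none of them called. Mbd4 was at -0.25 with median centring (adjusted p = 0.050 as a gene and 0.048 over probes) and turned to 0.0030 at offset 10, also by its probe A_51_P203192. Leaving out 1 replicate gave 0.41 to 0.44 for Mbd1, -0.29 to -0.15 for Mbd2, 0.025 to 0.25 for Mbd3, -0.047 to 0.047 for Mbd4 and -0.12 for Zbtb33 each time, and 10 to 15 list genes lower. For these, other than the replicates left out, the cause was not tested. Among 12 alternatives Mbd1 kept its direction and call in 11, Mbd2 in 9 and Zbtb33 in 8. No paired analysis was possible because the arrays form 1 group, and each array's ratio already pairs the channels. Dim signal limits the second Mbd2 and Zbtb33 probes. All 3 arrays lay on 1 slide.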
